A study of Mus musculus with 18 samples.

Results

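Alveolar type 1 cell genes were followed here in whole lungs of mouse embryos at 14.5 days post coitus (dpc). The set consisted of 8 genes, Hopx, Ager, Aqp5, Pdpn, Akap5, Clic5, Rtkn2 and Emp2, picked by name as known markers of this cell type. They were picked with earlier results of these data known, and each had a row among the 23418 genes of the tables. RNA-seq had been performed on 18 samples from 3 mouse lines, with 3 control and 3 deficient samples in each line. Controls were Rptorf/+; ShhCre/+, Tfamf/+; ShhCre/+ or Cox10f/+; ShhCre/+, and deficient lungs were Rptorf/f; ShhCre/+, Tfamf/f; ShhCre/+ or Cox10f/f; ShhCre/+. Controls therefore also carried the Cre allele and 1 floxed copy of the targeted gene, and no group without Cre was analysed here. Cre is expressed from the Shh locus and recombines in the lung epithelium, whereas the RNA came from all cells of the lung. Rptor encodes the defining subunit of mTOR complex 1, a kinase complex that couples nutrient supply to growth. The product of Tfam packages mitochondrial DNA and starts its transcription. Cox10 makes the heme that cytochrome c oxidase, the last complex of the respiratory chain, needs. The comparison asked how loss of each gene in the epithelium altered the RNA of alveolar type 1 cell genes during airway branching.

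Alveolar type 1 cells are the thin, flat epithelial cells across which gas passes in the mature lung. They arise from distal epithelial progenitors together with surfactant-producing alveolar type 2 cells, mostly as saccules form after the stage sampled here, so these genes were measured before the cell type is mature. Several of the genes are also active outside the epithelium, for example Pdpn in mesothelium and lymphatic endothelium. In a whole lung, fewer cells of a type and less RNA per cell cannot be told apart.

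Values were normalised read counts, that is, reads scaled by the authors with 1 factor per sample. They summed to between 27726466 and 29610284 per sample, and each difference rested on 3 samples per group. The targeted gene overlapped between control and deficient lungs in each line. Rptor was at 2240 in controls (range 2197 to 2298) and 2149 in deficient lungs (1986 to 2442), Tfam was at 1102 (1057 to 1185) against 1013 (940 to 1107), and Cox10 was at 797 (753 to 824) against 794 (743 to 829). A count over a whole gene and a whole lung does not show recombination in the epithelium, so these values do not check the labels. Nkx2-1, the factor that marks the lung epithelium, was well above 0 in every sample (2092 to 6147). Libraries also differed in other tissue, since the summed markers of cardiac muscle ran from 1409 to 30221 and those of the oesophagus and trachea were at 841 in Tfam deficient replicate 3 against 83.6 to 273 elsewhere. The part of these in the members' values was not tested.

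The promoters of 3 members that passed the test in at least 1 line are printed here, because they show how unlike the sequences in front of these genes are. Each is the 250 bases before the gene's start, 5′ to 3′ on the strand of the gene, from RefSeq (GRCm38.p6). Capitals mark GGGCGG or its complement CCGCCC, the core letters bound by KLF and SP factors. The Ager window lies at chr17:34597600-34597849 on the plus strand, the Hopx window at chr5:77115124-77115373 on the minus strand, and the Akap5 window at chr12:76324641-76324890 on the plus strand, and none of these overlaps an annotated exon.
Ager: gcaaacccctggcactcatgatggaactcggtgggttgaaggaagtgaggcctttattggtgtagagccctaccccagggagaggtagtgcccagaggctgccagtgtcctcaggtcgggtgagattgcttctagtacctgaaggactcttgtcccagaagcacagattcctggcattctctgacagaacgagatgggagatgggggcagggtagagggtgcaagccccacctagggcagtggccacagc
Hopx: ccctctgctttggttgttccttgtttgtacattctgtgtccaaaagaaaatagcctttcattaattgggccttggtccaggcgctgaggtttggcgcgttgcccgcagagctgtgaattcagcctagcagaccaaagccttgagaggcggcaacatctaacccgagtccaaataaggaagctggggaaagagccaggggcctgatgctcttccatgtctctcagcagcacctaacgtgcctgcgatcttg
Akap5: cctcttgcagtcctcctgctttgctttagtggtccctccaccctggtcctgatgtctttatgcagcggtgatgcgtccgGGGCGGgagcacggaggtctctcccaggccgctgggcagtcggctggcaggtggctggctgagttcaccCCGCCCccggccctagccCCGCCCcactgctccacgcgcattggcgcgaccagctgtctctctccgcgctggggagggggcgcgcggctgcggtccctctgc

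The Akap5 window held these letters at 3 places, starting 171, 102 and 84 bases before the gene's start, and its GC content was 70.0%. The Ager window had a GC content of 57.6% and the Hopx window of 52.4%, and neither held the letters. RefSeq windows were found for 7 of the 8 members, 8 windows in all because Hopx had a pair of starts. Of these 8 windows, 4 held GGGCGG or CCGCCC, compared with 32.7% of all 32851 promoter windows of that length. The Aqp5 window and the second Hopx window overlap annotated exons of these genes, and of the 6 windows free of annotated exons 3 held the letters. The letters GGAATG, bound by the TEAD partners of YAP and TAZ, were in 0 of the 8 windows on either strand and in 12.6% of all windows. The letters CACTTG, bound by NKX2-1, were in 0 of the 8 windows and in 11.6% of all windows. No match in these windows overlapped a match of another motif.

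Among the alveolar type 1 cell genes, Hopx had the largest fall in the Rptor line, and Ager had the largest fall in the Tfam and Cox10 lines. In the Rptor line, 4 of the 8 members passed the test (limma, adjusted p below 0.05 over all genes tested), and all 4, Hopx, Akap5, Rtkn2 and Emp2, fell. Among all 14939 genes tested in that line, 34.8% passed and 18.2% fell, which is the background for the 4 of 8 members. Markers of other tissues were higher in the same Rptor-deficient lungs. The mesenchymal markers summed to 261771 to 295189 against 143867 to 164496 in controls (5 of 8 rose), and those of blood endothelium to 48479 to 55413 against 39258 to 40594 (7 of 10 rose). Their part in the members' values was not tested. Ager alone passed in the Tfam line, where 4.66% of 15052 genes passed and 2.63% fell. It was also the single member past the threshold in the Cox10 line, where 0.475% of 14935 genes passed and 0.335% fell. No member rose past the threshold in any line, and none rose at an unadjusted p under 0.05 in limma. The median log2 fold change of the 8 members was -0.45 (Rptor), -0.16 (Tfam) and -0.20 (Cox10), beside medians over all genes of 0.0082, 0.00099 and 0.0014.

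**Figure D1:**
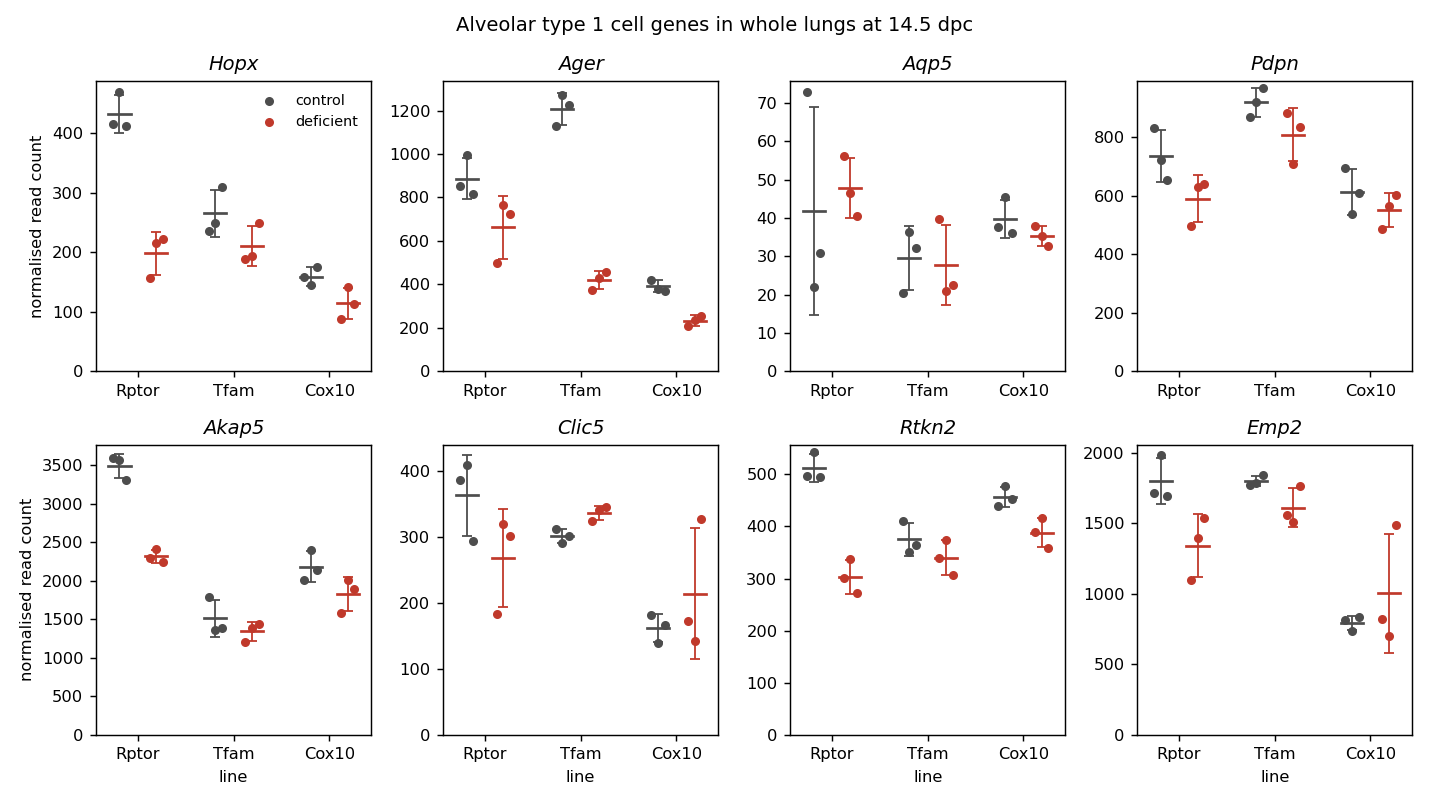
Normalised read count of each alveolar type 1 cell gene (y axis, from 0) in the 3 control (grey) and 3 deficient (red) lungs of each line (x axis), with points for samples, horizontal lines for group means and bars for SD. Ager in the Tfam line falls from between 1129 and 1272 to between 373 and 455, and Hopx in the Rptor line from between 413 and 469 to between 157 and 221.

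Ager encodes the receptor for advanced glycation end products, a membrane protein held at the basal surface of alveolar type 1 cells. The gene lies at chr17:34597862-34600936 (GRCm38, plus strand). Its largest fall was in the Tfam line, where its normalised read count was 1129, 1272 and 1226 in the controls and 373, 431 and 455 in the deficient lungs. The groups were far apart. The log2 fold change was -1.53 ± 0.088 (SE, n = 3 per group; limma adjusted p = 4.0e-06), and the deficient mean was 34.7% of the control mean. Cox10 control values were 422, 378 and 371 and the deficient values 207, 237 and 254. These groups did not overlap either, and the log2 fold change was -0.75 ± 0.11 (adjusted p = 0.0365). That call held in 1 of the 6 fits that each left out a library, the fit without deficient replicate 3 (adjusted p = 0.0117), and was lost when any of the other 5 was left out, with adjusted p-values up to 0.250. Rptor control values were 853, 995 and 814 and the deficient values 498, 766 and 722. The deficient lungs were lower without overlap, and the log2 fold change of -0.44 ± 0.16 missed the threshold (adjusted p = 0.0606), which it passed in 1 of the 6 fits that each left out a library, the fit without deficient replicate 2 (-0.56, adjusted p = 0.0395). Without deficient replicate 1, the lowest of the 3, it shrank to -0.25 (adjusted p = 0.0723). With the replicate number as a block, which the pairing check called for in this line, the same change passed the test (adjusted p = 0.0196) and 5 members passed in place of 4, while the share of all genes that passed went from 34.8% to 38.6%.

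Hopx encodes a small homeodomain protein that does not bind DNA itself and acts through partner factors. It lies at chr5:77086988-77115121 (minus strand) and overlaps Hopxos on the opposite strand, from which its reads cannot be told apart because the strand setting of the counting is not given in the sources used here. Rptor controls had 415, 469 and 413 normalised reads and the deficient lungs 157, 215 and 221. The groups were far apart, and the log2 fold change was -1.14 ± 0.15 (adjusted p = 0.000816). Tfam controls had 236, 250 and 310 and the deficient lungs 189, 194 and 248, so that the groups overlapped (log2 fold change -0.33 ± 0.14, adjusted p = 0.243, and -0.22 without control replicate 3). Cox10 controls had 158, 144 and 175 and the deficient lungs 87.8, 141 and 113. All deficient values were lower, but deficient replicate 2 lay just below the lowest control, and the log2 fold change of -0.50 ± 0.19 did not pass (adjusted p = 0.346) and was -0.33 without deficient replicate 1.

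Akap5 and Rtkn2 encode proteins that act inside the cell in signalling. Akap5 anchors protein kinase A and other enzymes at the membrane. Akap5 (chr12:76324891-76334153, plus strand) was at 3592, 3572 and 3316 normalised reads in Rptor controls and at 2302, 2411 and 2241 in Rptor-deficient lungs. The replicates lay close together, and the log2 fold change of -0.59 ± 0.057 had the smallest standard error of the 8 members in that line (adjusted p = 0.000253). The Tfam line had Akap5 at 1788, 1367 and 1387 against 1205, 1384 and 1445, overlapping (log2 fold change -0.16 ± 0.11, adjusted p = 0.469). Control replicate 1 was the highest and deficient replicate 1 the lowest, and the value was -0.039 without the former and -0.088 without the latter. For the Cox10 line it was at 2014, 2400 and 2141 against 1586, 2007 and 1899, lower without overlap but with a gap of only a few reads, and the log2 fold change of -0.26 ± 0.10 did not pass (adjusted p = 0.353) and was -0.16 without deficient replicate 1.

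Rtkn2 (chr10:67979570-68059740, plus strand) overlaps Gm16212 on the opposite strand, with the same limit as Hopx. Its values were 498, 543 and 495 in Rptor controls and 302, 337 and 272 in Rptor-deficient lungs. The log2 fold change was -0.76 ± 0.11 (adjusted p = 0.00116), with a wide gap between the groups. Tfam values were 410, 351 and 365 against 339, 374 and 307 (log2 fold change -0.14 ± 0.10, adjusted p = 0.519), and the change shrank to -0.077 without control replicate 1 and to -0.071 without deficient replicate 3. Those of the Cox10 line were 439, 478 and 454 against 390, 416 and 359 (log2 fold change -0.24 ± 0.087, adjusted p = 0.343). The groups overlapped in the Tfam line and were apart in the Cox10 line.

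Emp2 and Pdpn encode membrane proteins, a tetraspan protein that organises surface proteins and the mucin-like glycoprotein also called T1 alpha. Emp2 (chr16:10281749-10313968, minus strand) was at 1712, 1987 and 1694 in Rptor controls and at 1094, 1394 and 1535 in Rptor-deficient lungs. It fell there by 0.43 on the log2 scale (SE 0.12, adjusted p = 0.0258), and the call was lost without control replicate 1 (adjusted p = 0.0523) or control replicate 2 (adjusted p = 0.0993). Tfam lungs had Emp2 at 1774, 1787 and 1842 against 1556, 1506 and 1766, without overlap but with little room between the groups (log2 fold change -0.17 ± 0.069, adjusted p = 0.245). Cox10 lungs had it at 814, 737 and 832 against 823, 702 and 1486, where deficient replicate 3 alone was high.

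Pdpn (chr4:143267431-143299564, minus strand) was at 832, 721 and 655 in Rptor controls and at 498, 631 and 641 in Rptor-deficient lungs. The groups did not overlap, and the log2 fold change of -0.32 ± 0.13 did not pass (adjusted p = 0.0769) and was -0.20 without deficient replicate 1. In the same lungs the summed mesothelial markers were higher, at 13745 to 14166 in deficient lungs against 7275 to 9243 in controls, and 7 of 8 mesothelial markers rose, while 3 of 5 lymphatic endothelial markers tested rose and the list summed to 8778 to 9265 against 6962 to 7822. Their part in the Pdpn value was not tested. Tfam lungs had Pdpn at 870, 920 and 968 against 882, 710 and 837, and Cox10 lungs at 695, 537 and 611 against 487, 564 and 604. The groups overlapped in both lines, with log2 fold changes of -0.19 ± 0.088 (adjusted p = 0.305) and -0.15 ± 0.12 (adjusted p = 0.591). The Tfam value was -0.096 without deficient replicate 2, and the Cox10 value was -0.059 without control replicate 1, -0.065 without deficient replicate 1 and -0.24 without control replicate 2.

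Aqp5 and Clic5 encode a water channel and a protein of the chloride intracellular channel family that associates with the actin cytoskeleton. Aqp5 (chr15:99590782-99594829, plus strand) was the lowest of the 8. The Rptor values were 72.8, 21.98 and 30.8 in controls and 56.1, 46.5 and 40.5 in deficient lungs, with control replicate 1 above all others. The Tfam values were 20.3, 36.4 and 32.0 against 39.7, 20.8 and 22.5, and the Cox10 values 37.7, 45.4 and 36.0 against 37.9, 35.2 and 32.6. Groups overlapped in each line. No change of Aqp5 passed, with log2 fold changes of 0.35 ± 0.40 (Rptor, adjusted p = 0.520), -0.11 ± 0.31 (Tfam, adjusted p = 0.893) and -0.16 ± 0.20 (Cox10, adjusted p = 0.737). The Rptor value moved to 0.84 without control replicate 1 (adjusted p = 0.0568) and to -0.0051 without control replicate 2, the Tfam value ran from -0.39 to 0.056 as each library was left out, and the Cox10 value was -0.065 without control replicate 2.

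Clic5 (chr17:44188584-44280172, plus strand) was at 386, 409 and 293 in Rptor controls and 183, 319 and 301 in Rptor-deficient lungs, with overlap (log2 fold change -0.46 ± 0.22, adjusted p = 0.132). Deficient replicate 1 was the lowest, and without it the value was -0.21 (adjusted p = 0.289). Tfam lungs had Clic5 at 311, 290 and 301 in controls and 324, 340 and 344 in deficient lungs. All 3 Tfam-deficient values were higher, although the log2 fold change of 0.16 ± 0.085 did not pass (adjusted p = 0.370). Clic5 was the 1 member higher without overlap in any line, as were 10.9% of all genes tested in the Tfam line. Cox10 lungs had it at 181, 139 and 167 against 173, 142 and 326, again with deficient replicate 3 high.

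Counting values rather than tests, 6 members were lower without overlap in the Rptor line, 2 in Tfam and 4 in Cox10 lungs. The same held for 26.0%, 11.8% and 10.8% of all genes tested in those lines.

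**Figure D2:**
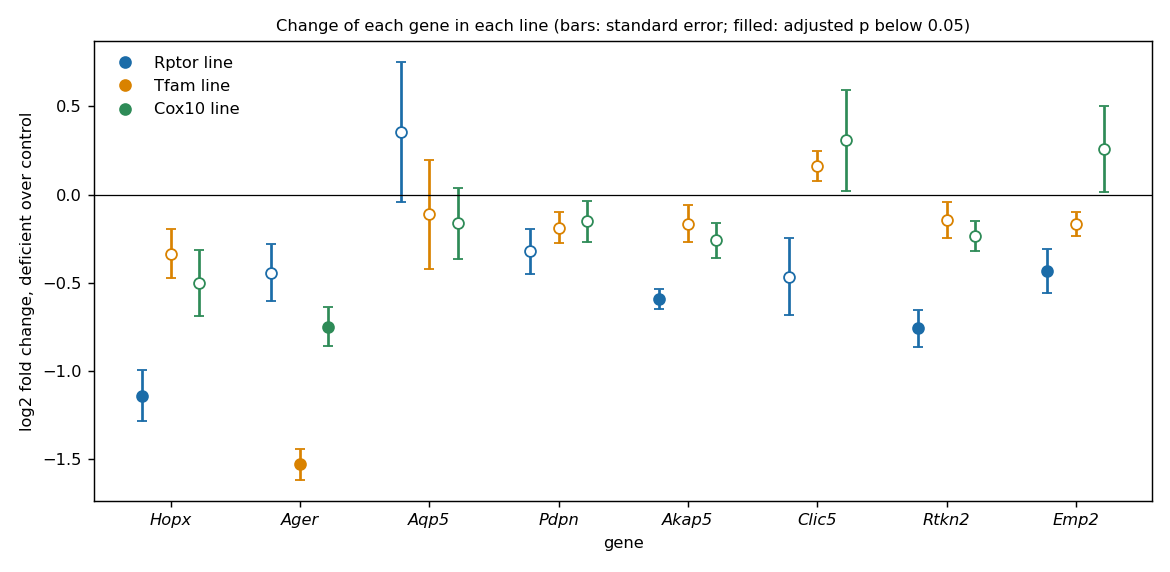
Log2 fold change of each alveolar type 1 cell gene, deficient over control (y axis), in the Rptor (blue), Tfam (orange) and Cox10 (green) lines, with bars for the standard error and filled points for an adjusted p below 0.05. Filled points are Hopx, Akap5, Rtkn2 and Emp2 in the Rptor line and Ager in the Tfam and Cox10 lines, with Ager in the Tfam line lowest at -1.53.

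Whether the lines differed in their effect on a member was tested in a fit of all 18 samples, on the 14549 genes tested in each line. Between the Rptor and Tfam lines, 3 members differed, beside 11.2% of all genes. Ager fell more in the Tfam line, with a difference (Rptor minus Tfam) of 1.09 on the log2 scale (95% confidence interval 0.69 to 1.49, adjusted p = 0.00178). Hopx fell more in the Rptor line, by -0.80 (-1.31 to -0.29, adjusted p = 0.0416), and so did Rtkn2, by -0.61 (-0.91 to -0.32, adjusted p = 0.0103). The Ager and Rtkn2 differences passed in each of the 18 fits that left out a library, and the Hopx difference in 8 of them. Between the Rptor and Cox10 lines only Rtkn2 differed, by -0.52 (-0.82 to -0.23, adjusted p = 0.0294), beside 7.49% of all genes, and it passed in 12 of 18 such fits. These are differences per library, and the mean log2 level of Epcam, Cdh1 and Nkx2-1 differed between deficient and control lungs by -1.17 (Rptor), -0.27 (Tfam) and -0.40 (Cox10). Between the Tfam and Cox10 lines no member passed, beside 0.0550% of all genes. The Ager difference there was -0.78 (-1.18 to -0.38), with an unadjusted p of 0.000720 and an adjusted p of 0.436, the test's only member with an unadjusted p under 0.05. For Pdpn, none of the comparisons passed, and the intervals of the difference ran from -0.50 to 0.23 (Rptor minus Tfam), from -0.54 to 0.20 (Rptor minus Cox10) and from -0.40 to 0.33 (Tfam minus Cox10).

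Averaged over the 3 lines in the same fit, 5 members were lower and passed the test, where 37.1% of all genes passed and 19.1% were lower. The mean effect was -0.91 for Ager (SE 0.078, adjusted p = 1.8e-07), -0.66 for Hopx (SE 0.099, adjusted p = 8.1e-05), -0.38 for Rtkn2 (SE 0.057, adjusted p = 8.1e-05), -0.34 for Akap5 (SE 0.060, adjusted p = 0.000336) and -0.22 for Pdpn (SE 0.071, adjusted p = 0.0219). Emp2 (-0.11 ± 0.11), Clic5 (0.0011 ± 0.14) and Aqp5 (0.027 ± 0.20) did not pass. Without Cox10 deficient replicate 3 the Emp2 mean effect was -0.22 and passed (adjusted p = 0.0120), in 1 of the 18 fits that left out a library.

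All 14 genes of a list active throughout the lung epithelium fell in the Rptor line, where 18.2% of all genes fell. Of the same 14, 6 fell in Tfam lungs and 2 in Cox10 lungs (8 and 10 were lower at an unadjusted p under 0.05 in limma), beside 2.63% and 0.335% of all genes, and the others did not pass. Cdh1, which encodes E-cadherin, had log2 fold changes of -1.89 ± 0.098 (adjusted p = 2.2e-05), -0.55 ± 0.059 (adjusted p = 0.000372) and -0.43 ± 0.098 (adjusted p = 0.139) in the Rptor, Tfam and Cox10 lines. Epcam, an adhesion molecule of epithelia, had -0.77 ± 0.12 (adjusted p = 0.00199), -0.048 ± 0.10 (adjusted p = 0.862) and -0.30 ± 0.090 (adjusted p = 0.260), and Nkx2-1 had -0.85 ± 0.11 (adjusted p = 0.000738), -0.22 ± 0.063 (adjusted p = 0.0803) and -0.45 ± 0.091 (adjusted p = 0.1002), in the same order. The mean log2 level of Epcam, Cdh1 and Nkx2-1 was taken as an epithelial reference, and each member was also expressed relative to it. Its deficient minus control difference is the one given above, -1.17, -0.27 and -0.40 in the same order of lines. These log2 differences describe the level relative to the reference, not the level per library, and an exact two-sided permutation test of 3 against 3 samples cannot give a p below 0.1.

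Relative to the epithelial genes, all 8 deficient minus control differences were positive in the Rptor line, and 6 members were higher without overlap. Their mean was 0.70 (0.30 to 1.41 against 1 reference gene alone), and 7 of 8 were positive against Epcam or Nkx2-1 alone. The reference itself was lower there, and most genes had a positive difference on this scale. Over all 14939 genes tested in that line, 98.0% of these differences were positive with a median of 1.18, above the members' mean, and 94.0% were higher without overlap. For Hopx, the member that fell most per library in that line, the relative difference was 0.034 (exact p = 0.7), and its sign depended on the reference gene, at -0.37 against Epcam alone, -0.28 against Nkx2-1 alone and 0.75 against Cdh1 alone. That of Ager was 0.73, with relative levels at -1.98 to -1.63 in deficient lungs against -2.68 to -2.35 in controls (exact p = 0.1). The mean difference was -0.037 in the Tfam line (-0.26 to 0.24 against 1 reference gene alone), beside a median of 0.27 over all genes, and Ager stood apart from the other members. Its relative level was -3.28 to -3.14 in deficient lungs against -2.04 to -1.84 in controls, a difference of -1.26 (exact p = 0.1), while the other 7 members lay between -0.062 and 0.43. In the Cox10 line the mean was 0.21 (0.11 to 0.27 against 1 reference gene alone), beside a median of 0.40 over all genes. The relative difference of Ager there was -0.35, again without overlap (exact p = 0.1). On this relative scale, 1.83% (Tfam) and 0.737% (Cox10) of all genes tested were lower without overlap. The deficient minus control difference of the relative Ager level was thus positive in the Rptor line and negative in the other 2, also against each of the 3 reference genes alone (0.33 to 1.45 in Rptor, -1.48 to -0.98 in Tfam and -0.45 to -0.29 in Cox10 lungs). For Rtkn2 the relative difference was 0.41 in the Rptor line against 0.13 (Tfam) and 0.16 (Cox10). For Hopx it was 0.034 against -0.062 and -0.11. The medians over all genes were 1.18, 0.27 and 0.40, so a gene unchanged per library is highest on this scale in the Rptor line. Both genes lay below these medians in each line. Whether these relative differences differed between lines was not tested. The single-gene references were added after the data were seen. The difference of Ager between the Rptor and Tfam lines per library is the one tested above.

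**Figure D3:**
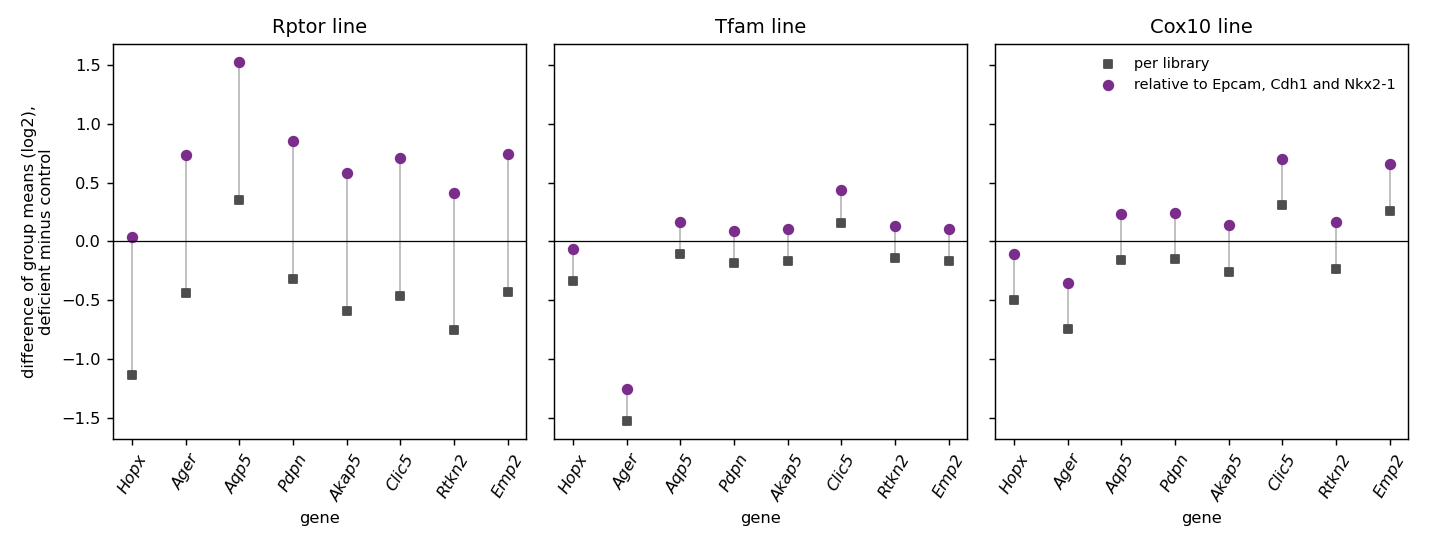
Difference of group means, deficient minus control, on the log2 scale (y axis), for each alveolar type 1 cell gene in each line, per library (grey squares) and after subtracting the mean log2 level of Epcam, Cdh1 and Nkx2-1 (purple circles). In the Rptor line all 8 circles lie above 0 (7 of 8 against Epcam or Nkx2-1 alone), where the median over all genes tested is 1.18, whereas in the Tfam line Ager stays at -1.26.

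A single library set the direction of 2 members in the Cox10 line. Deficient replicate 3 had Clic5 at 326 and Emp2 at 1486, which were 2.01 and 1.87 times the control means, while the other Cox10-deficient lungs had 173 and 142 for Clic5 and 823 and 702 for Emp2. Without it the log2 fold change of Clic5 moved from 0.31 to -0.044 and that of Emp2 from 0.26 to -0.062, neither past the test. Markers of other cell types moved in the same library. Sftpc, a surfactant gene of alveolar type 2 cells, was at 4084 there against 386 and 562 in the other deficient lungs and 1241 to 1422 in controls. Lamp3 was 2.68 times and Napsa 3.11 times the control mean, and Sftpc and Napsa were singled out after their values were seen. Of the 11 type 2 cell genes, 9 were above every control in this library, Etv5 was below every control (8807 against 11412 to 11853), and the sum of the list was 1.13 times the control mean. The summed blood endothelial markers were 44862, against 28196 and 31299 in the other deficient lungs and 27753 to 28527 in controls. Its correlation with the other Cox10-deficient libraries across 14902 genes was 0.981 and 0.984, whereas these correlated at 0.992 with each other. The part of these shifts in the Clic5 and Emp2 values was not tested. Only Sftpd, of that list, was near 0 in every Cox10 library (at most 2.01). Ager in this library was 254, next to 207 and 237 in the other deficient lungs.

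**Figure D4:**
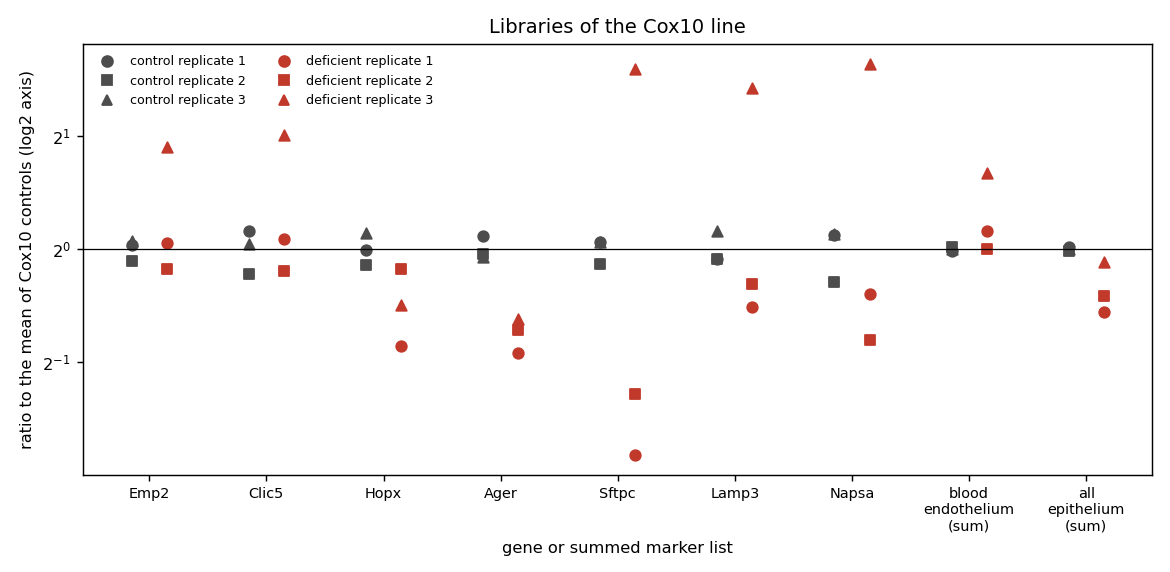
Ratio of each Cox10 library to the mean of the 3 Cox10 controls (y axis, log scale) for alveolar type 1 cell genes, alveolar type 2 cell genes and 2 summed marker lists (x axis), with grey for controls, red for deficient lungs and marker shapes for replicates. Deficient replicate 3 (red triangles) is at 1.87 for Emp2, 2.01 for Clic5 and 3.00 for Sftpc, while its Ager value lies with the other deficient lungs.

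Further genes known from alveolar type 1 cells moved in both directions. Of a list of 25, 23 were tested in the Rptor line, and 11 fell and 5 rose. Among 24 tested in the Tfam line 9 fell and 1 rose, and in Cox10 lungs 3 fell and none rose of 23 tested (6 lower and 2 higher at an unadjusted p under 0.05 in limma). Over all genes 34.8%, 4.66% and 0.475% passed and 18.2%, 2.63% and 0.335% fell, in the same order of lines. The medians of their log2 fold changes were -0.58, -0.24 and -0.19. Itgb6, an integrin subunit that activates TGF-beta, had log2 fold changes of -2.45 ± 0.26 (adjusted p = 0.000396), -0.85 ± 0.12 (adjusted p = 0.00278) and -0.68 ± 0.20 (adjusted p = 0.238) in the same order of lines. Cldn18, a tight junction protein, went from 3557 to 1465 in the Rptor line and from 4101 to 3039 in the Tfam line, and both falls passed. The 3 genes that fell in all lines were Krt7, a keratin, Sema3e, a guidance ligand, and Mal2, a protein of apical transport, of which Krt7 and Sema3e were singled out after their values were seen. Mal2 fell from 2610 to 774, from 2454 to 1516 and from 1737 to 1127 in the Rptor, Tfam and Cox10 lines. Spock2, a secreted proteoglycan, rose in the Rptor line from 175 to 991 (log2 fold change 2.49 ± 0.088, adjusted p = 1.2e-05) and in the Tfam line from 251 to 365 (0.53 ± 0.12, adjusted p = 0.0298). Several genes of this list are active in other cells of the lung too.

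Of 17 factors known to act in alveolar type 1 cells, 5 fell and 4 rose in the Rptor line, and 2 fell and none rose in each of the Tfam and Cox10 lines. The shares of all genes just given are the background for this list and those that follow. The 2 were Foxa1 and Foxa2, pioneer factors of the lung endoderm. Foxa1 had log2 fold changes of -1.79 ± 0.15 (adjusted p = 0.000151), -0.65 ± 0.065 (adjusted p = 0.000235) and -0.66 ± 0.076 (adjusted p = 0.0184) in the Rptor, Tfam and Cox10 lines. Foxa2 changed by -0.58, -0.41 and -0.39. Among 9 genes that respond to YAP and TAZ, the cofactors that drive alveolar type 1 cell fate, 2 fell and 1 rose in the Rptor line, 1 fell in Tfam lungs and none passed in Cox10 lungs (1 lower and 1 higher at an unadjusted p under 0.05 in limma). Ajuba, a LIM protein of the Hippo pathway, was the gene that fell in both the Rptor and Tfam lines, by 0.24 and 0.25 on the log2 scale.

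Alveolar type 2 cell genes, the sister lineage, split in direction. Of 10 tested, 5 fell and 1 rose in the Rptor line and 1 fell and 4 rose in Tfam lungs, and none of 9 passed in Cox10 lungs, where limma gave 1 lower and 1 higher at an unadjusted p under 0.05. Lamp3, of the lamellar body, had a log2 fold change of -2.50 ± 0.39 (adjusted p = 0.00199) in the Rptor line and 0.52 ± 0.12 (adjusted p = 0.0282) in the Tfam line. Markers of secretory cells of the airway fell in the Rptor line (4 of 4 tested) and the Tfam line (3 of 4), while 0 of 3 passed in Cox10 lungs, with 0 at an unadjusted p under 0.05 in limma. Among 6 genes of the distal tip, where progenitors of alveolar cells lie, 3 rose and 2 fell in the Rptor line and 3 rose and 1 fell in the Tfam line. None of the 6 passed in the Cox10 line, where 1 was lower and 3 higher at an unadjusted p under 0.05 in limma. The distal tip list summed to 19501 to 21262 in Rptor-deficient lungs against 26841 to 27246 in controls, and its sums overlapped in the other lines. Id2 rose in the Rptor and Tfam lines by 0.35 ± 0.054 (adjusted p = 0.00184) and 0.56 ± 0.063 (adjusted p = 0.000495) on the log2 scale.

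Per kilobase of annotated exon, control levels were ordered within each line, and were not tested across lines because the tables were scaled separately. In Rptor controls Akap5 was highest at 512 ± 22.5 (SD, n = 3) normalised reads per kilobase, followed by Ager at 414 ± 44.6 and Pdpn at 405 ± 49.0, whose ranges overlapped. Hopx at 285, Emp2 at 208, Rtkn2 at 92.3, Clic5 at 41.3 and Aqp5 at 16.1 came after, each below the range of the gene before. In Tfam controls Ager was highest at 565 ± 34.2, overlapping Pdpn at 506 ± 27.1, and in Cox10 controls Pdpn was highest at 338 ± 43.6, overlapping Akap5 at 320 ± 28.8. Aqp5 was lowest in each line, and in Cox10 controls its range overlapped that of Clic5. In Tfam-deficient lungs Ager was at 196 ± 19.5 per kilobase, beside Akap5 at 197 ± 18.3 and Emp2 at 186 ± 15.99.

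Over the 18 samples, with log2 values centred on the mean of their line, pairs of members varied together to different degrees. Samples of a line share a table and group effects, so these correlations are descriptions. Clic5 and Emp2 had a Pearson r of 0.89, Akap5 and Rtkn2 of 0.87, and Hopx of 0.82 with Akap5. Cox10 deficient replicate 3, high in both Clic5 (326) and Emp2 (1486), is among these samples, and no r was computed without it. Ager had 0.031 with Clic5, and Aqp5 had between -0.35 and 0.11 with the other 7. After group means were also removed, r was 0.92 for Clic5 with Emp2, 0.43 for Akap5 with Rtkn2, 0.67 for Ager with Clic5 and 0.23 for Hopx with Akap5. Over all pairs of members it then ran from -0.45 (Rtkn2 with Emp2) to 0.92. Rtkn2 also had -0.38 with Pdpn and -0.14 with Hopx, the latter 0.80 before group means were removed. Among 12946 genes, the ones most like Ager were Evpl (r = 0.95), Veph1 (0.94) and Cfi (0.91), and after group means were also removed these were 0.57, 0.21 and 0.40. Hopx was most like Dmd (0.96), Psmd13 (0.95) and Ppil1 (0.95). Akap5 was most like Ect2, Trim2 and Whsc1 (0.94 to 0.95), Rtkn2 like Aldh5a1, Wdr5 and Pes1 (0.95 to 0.96), Emp2 like Lgi3, Adh1 and Fgf1 (0.90 to 0.92) and Clic5 like Ctsc, Emp2 and Lgi3 (0.88 to 0.89). Likeness was lower for Pdpn, with 2810408I11Rik, Plekhb2 and Mfsd6 at 0.82 to 0.83, and for Aqp5, with Gm13152, Pigx and Csf1 at 0.76 to 0.86.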

How the data were processed

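RNA was measured by RNA-seq in 18 whole embryonic lungs, 3 control and 3 deficient in each of 3 lines, grouped by sample title. The methods give TRIzol, a Qiagen column and a BGISEQ-500 sequencer, whereas the labels give snap freezing and a standard Illumina library protocol. Mutants from different litters were combined and both sexes were used. The submitters' processing notes name Trim Galore, HISAT2, featureCounts, DESeq2 and mm10. The authors deposited for each line a signal per gene and sample, the read count divided by a size factor, in which 100% of values were whole multiples (within 0.01) of a step of 0.978 to 1.02. The deposited tables also hold the authors' own fold changes and p-values, which were not used. For gene symbols duplicated as dates, the first row was kept and later rows were dropped.

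Values were analysed as log2(value + 1), so changes of low genes are understated. Genes with at least 10 in at least 3 of 6 samples were tested in limma 3.58.1 (R 4.3.3; lmFit, eBayes with trend) in each line, with Benjamini-Hochberg adjustment over all genes tested and a threshold of 0.05. Differences between lines came from a fit of 18 samples. All tests were two-sided. Positions and exon lengths are from GENCODE M21 (GRCm38). The scripts were tested on simulated data. P-values measure the spread between samples, which may share litters. Counting error was not compared with the spread between samples.

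The members, the gene lists and the tests were chosen with earlier results of these data known. Besides the 8 members, the text names, from each list, at most 4 genes past the threshold in at least 2 lines with the largest mean absolute change, markers near 0 in lists set beside a member, and the 3 genes most correlated with each member. Genes outside this rule (Krt7, Sema3e, Sftpc, Napsa) were named after their values were seen. The mean effect over lines was added after seeing the data. Same-numbered control and deficient samples deviated together in the Rptor line (correlations 0.221 to 0.330, all over 0.1), so the replicate number may pair samples there. That pairing comes from the titles and this check alone. The main fit of each line used no pairing, and the replicate block was run as an alternative. Alternatives were another pseudocount, other filters and scalings, the replicate block, all samples in one fit, Xist as a covariate, a stricter threshold, another epithelial reference, and each sample left out.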

Additional observations from a re-analysis of the deposited data

Results flagged for a closer look

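The effect on 3 alveolar type 1 cell genes differed between lines by the test of the difference itself. Ager stood 1.09 higher on the log2 scale in the Rptor effect than in the Tfam effect (limma adjusted p = 0.00178, SE 0.19), since it was lower in 3 of 3 deficient lungs of both lines but by more in the Tfam line. Hopx had a Rptor minus Tfam difference of -0.80 (SE 0.24, adjusted p = 0.0416), which passed in 8 of the 18 fits that left out a sample, with adjusted p-values from 0.0227 to 0.114. It was lost without any of the Rptor controls, Rptor deficient replicate 1, Tfam control replicate 1 or 2, Tfam deficient replicate 2 or 3, or Cox10 control replicate 1 or 3. Rtkn2 had a Rptor minus Tfam difference of -0.61 (SE 0.14, adjusted p = 0.0103) and a Rptor minus Cox10 difference of -0.52 (SE 0.14, adjusted p = 0.0294). Relative to the epithelial reference, which itself differed by -1.17 (Rptor), -0.27 (Tfam) and -0.40 (Cox10) on the log2 scale, the differences of Rtkn2 were 0.41, 0.13 and 0.16, an order that was not tested. The medians of this relative difference over all genes tested were 1.18, 0.27 and 0.40, each above the Rtkn2 value. Groups of 3 samples were too small for a test of single outlying samples.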

How the results depend on the processing

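Scaling each sample to the same total, trimmed mean of M-values factors, a pseudocount of 0.1, and no filter on low values changed no member's call in any line, nor did a mean of at least 50, which removed Aqp5, for the other 7. In the Cox10 line the count of members past the threshold went from 1 to 0 with the replicate block (Ager adjusted p = 0.0731) and to 0 at an adjusted p below 0.01, where the Rptor line lost Emp2 (0.0258) and kept the other 3. The samples there share only a number (same-number correlations 0.0487 to 0.447), as in the Tfam line (-0.312 to 0.151). In the Rptor line the block, besides adding Ager, changed no other call. With all 18 samples in one fit, Ager (adjusted p = 0.0151) and Pdpn (0.0447) passed in the Rptor line and Emp2 (0.0719) did not, and Emp2 also missed with Xist as a covariate (0.0562). The Tfam change of Aqp5 turned to 0.061 with Xist as a covariate. With the whole epithelial list as reference, the Cox10 mean relative difference moved from 0.21 to 0.17. With Epcam, Cdh1 or Nkx2-1 alone as reference, chosen after the data were seen, the mean was 0.30, 1.41 and 0.38 (Rptor), -0.26, 0.24 and -0.089 (Tfam) and 0.11, 0.25 and 0.27 (Cox10). The causes were not tested.

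Over all genes, the number past the threshold was 702 in the Tfam line, 399 with all 18 samples in one fit and 315 at 0.01. It was 71 in the Cox10 line, 327 with all samples, 117 with Xist and 15 at 0.01, and in the Rptor line it was 5202 and 2719 at 0.01.

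Leaving out each sample in turn gave 3 to 5 members past the threshold in the Rptor line, 1 in each fit of the Tfam line and 0 to 1 in the Cox10 line, with between 3558 and 5315 genes passing overall in the Rptor line, between 354 and 1114 in the Tfam line and between 3 and 255 in the Cox10 line. Ager passed in the Rptor line without deficient replicate 2 (adjusted p = 0.0395). Members whose effect differed numbered 2 to 4 (Rptor minus Tfam), 0 to 1 (Rptor minus Cox10) and 0 (Tfam minus Cox10). The shares of all genes in these fits ran from 5.87% to 16.5%, from 4.68% to 12.5% and from 0.0138% to 0.069%, in the same order. The Rtkn2 difference from Cox10 was lost without Rptor control 2, Rptor deficient 3, Cox10 control 1, Cox10 control 3, Cox10 deficient 1 or Cox10 deficient 2 (adjusted p up to 0.0793). Akap5 came to differ between Rptor and Tfam without Tfam control 1 (adjusted p = 0.0184), Tfam deficient 1 (0.0430) or Cox10 deficient 1 (0.0498), and Hopx and Emp2 between Rptor and Cox10 without Cox10 deficient 1 (0.0436) and Cox10 deficient 2 (0.0317). The mean effect passed for 4 to 6 members, beside 32.3% to 38.5% of all genes. Pdpn missed without Tfam deficient replicate 2 (adjusted p = 0.0501), and Emp2 passed without Cox10 deficient replicate 3 (0.0120). Mean relative differences ran from 0.63 to 0.77 (Rptor), -0.087 to -0.0054 (Tfam) and 0.19 to 0.22 (Cox10).

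Some directions turned, none of them past the test. The log2 fold change of Aqp5 ran from -0.0051 to 0.84 in the Rptor line and from -0.39 to 0.056 in the Tfam line, that of Clic5 from -0.044 to 0.55 and that of Emp2 from -0.062 to 0.48 in the Cox10 line. The mean effect ran from -0.093 to 0.19 for Aqp5 and from -0.12 to 0.086 for Clic5. The Tfam minus Cox10 difference ran from -0.23 to 0.22 for Aqp5, from -0.13 to 0.057 for Pdpn, from -0.39 to 0.20 for Clic5, from -0.0059 to 0.33 for Hopx and from -0.0061 to 0.22 for Akap5. The planned tests on read counts were not run, although each value was a whole multiple of its sample's step.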
